A study of Mus musculus with 6 samples.

Results

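The genes described here are 10 small leucine-rich proteoglycans (SLRPs), Bgn, Dcn, Lum, Fmod, Ogn, Omd, Prelp, Aspn, Kera and Epyc, among 22564 features measured in mouse foregut RNA. They were selected on family membership, and the family itself was chosen by the mutant and control values of biglycan (Bgn) in these libraries. The mutant against control values of the members are therefore given as a description, with their errors but with no p-value and no call. Calls and p-values of members on this contrast are only counted, in the closing section on processing, as a description. RNA was sequenced from 6 microdissected foreguts of mixed strain background, each from 1 embryo. The 3 mutants were homozygous for mutations of both Gli2 and Gli3, the transcription factors through which cells answer Hedgehog (HH) ligands. The 3 controls were heterozygous at both loci and so carried 1 mutant allele of each gene, and no wild-type foregut is compared here. Controls 1, 2 and 3 had 19, 24 and 21 somites, and mutants 1, 2 and 3 had 19, 22 and 21 somites.

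SLRPs are secreted proteins built around a row of leucine-rich repeats that binds collagen. Class I holds Bgn, Dcn and Aspn, class II Lum, Fmod, Omd, Prelp and Kera, and class III Ogn and Epyc. Most carry sugar chains, which are chondroitin or dermatan sulfate in Bgn and Dcn and keratan sulfate in many members of class II. SLRPs set the width and spacing of collagen fibrils in connective tissue, and several bind growth factors such as TGF-beta.

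A run of cysteines before the first repeat defines the classes. Below are the coding bases of this run, 5′ to 3′, for the 4 members expressed in these foreguts and for Ogn as an example of class III, with the cysteine codons in capitals:
Bgn: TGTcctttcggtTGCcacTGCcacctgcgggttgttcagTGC
Dcn: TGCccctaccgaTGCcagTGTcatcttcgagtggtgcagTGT
Lum: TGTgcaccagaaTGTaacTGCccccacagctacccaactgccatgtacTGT
Omd: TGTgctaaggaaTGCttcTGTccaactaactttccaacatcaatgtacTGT
Ogn: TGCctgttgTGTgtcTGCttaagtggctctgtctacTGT
In Bgn (chrX:73490979-73491020, + strand, mm10) and Dcn (chr10:97483507-97483548, +), both of class I, 3, 1 and 6 residues part the cysteines. In Lum (chr10:97568353-97568403, +) and Omd (chr13:49589659-49589709, +), both of class II, the spacing is 3, 1 and 9 residues. Ogn (chr13:49615566-49615604, +) has 2, 1 and 6. The run lies in the first coding exon of Bgn, Dcn, Lum and Omd and in coding exon 3 of Ogn. Each of the 10 members matched the spacing of its class. Within class I, the protein before the run of Bgn holds 2 serine-glycine pairs, that of Dcn 1 and that of Aspn 0. Such a pair is the usual attachment site of a chondroitin or dermatan sulfate chain, although not every pair carries one.

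Levels are in TPM, a share of the transcripts of each library corrected for their length, so they can be compared between genes, but read depth is unknown. Members were called expressed where their mean over the 6 libraries reached 1 TPM, and only 4 of the 10 did. Bgn was the most abundant with a mean of 37.7 TPM, followed by Lum (15.0 TPM), Dcn (11.5 TPM) and Omd (4.57 TPM). The next in order, Aspn (0.945 TPM) and Ogn (0.725 TPM), reached 1 TPM in 2 libraries each. Over the controls alone their means passed the limit, at 1.14 and 1.01 TPM, through control 3 (2.31 and 2.22 TPM). Over the mutants they were 0.753 and 0.437 TPM. Fmod reached it in 1 library, and Prelp, Epyc and Kera in none. The count of 4 depends on the scaling and the libraries. With TPM rescaled without features named by an accession 6 members passed, and without both libraries numbered 1 also 6. With 1 library left out, 4 or 5 passed. The summed level of the 10 members was 26.6, 64.2 and 46.6 TPM in controls 1, 2 and 3 against 70.5, 155.7 and 66.0 TPM in the mutants 1, 2 and 3. The lowest mutant thus lay just above the highest control, and Bgn made up 31.5% to 43.8% of the family in controls and 53.0% to 66.4% in mutants.

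**Figure D1:**
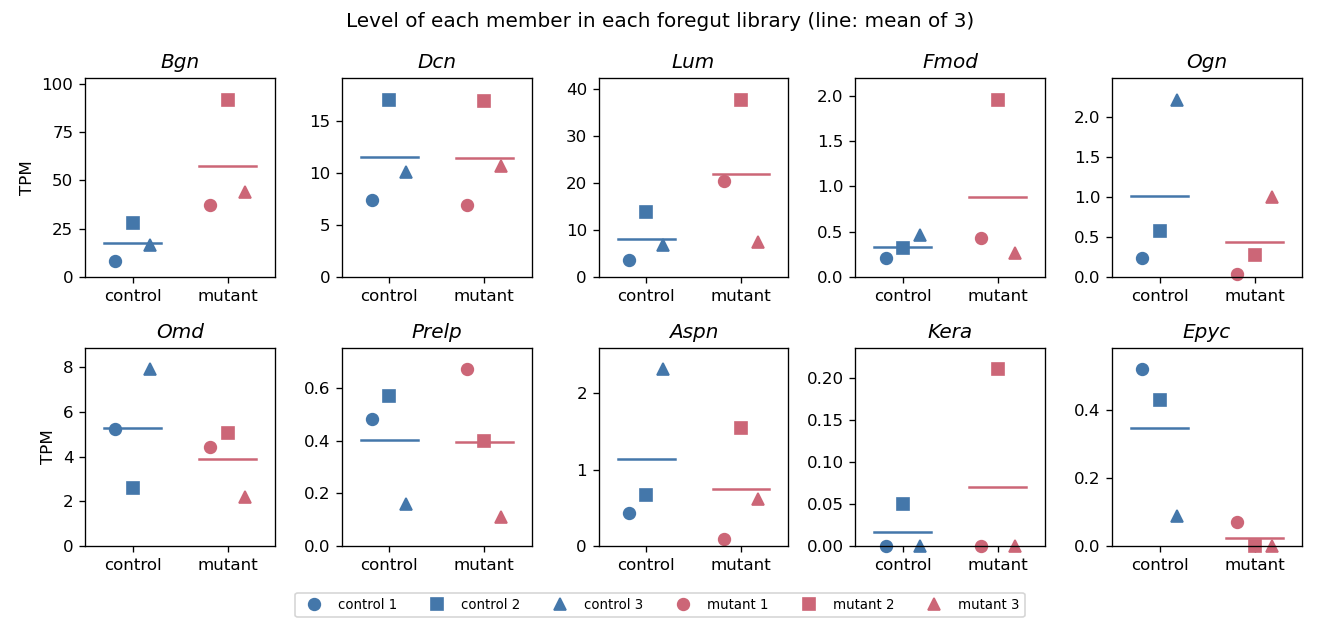
TPM of each of the 10 members (vertical axes, each from 0, different scales) in 3 control and 3 mutant libraries, 1 point per library with its replicate number by shape and a line at the mean of 3. The mutant points of Bgn, from 37.4 to 91.7 TPM, all lie above the control points, from 8.38 to 28.1 TPM, while those of Dcn repeat the control pattern.

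Biglycan is a class I SLRP of bone, tendon and vessel wall, encoded on the X chromosome (73483602 to 73495933, + strand, mm10). Bgn stood at 8.38, 28.1 and 16.7 TPM in controls 1, 2 and 3 against 37.4, 91.7 and 43.8 TPM in the mutants 1, 2 and 3. Every mutant lay above every control, and number 2 was the highest library in both genotypes. The means were 17.7 ± 9.9 and 57.6 ± 29.7 TPM (SD, n = 3), a 3.25-fold higher mean in mutants. Between libraries with the same number, which share their somite count for numbers 1 and 3, the level was 4.46, 3.26 and 2.62 times higher in the mutant. As the family was chosen on these values, the rank of Bgn on this contrast follows from the choice and supports nothing. The log2 difference was 1.68 ± 0.47 (SE), larger than that of 99.7% of the 14606 genes tested, whose median was 0.115. The other scalings tried took that median to between -0.015 and -0.005 and left Bgn between 1.54 and 1.59. In bulk tissue, more cells that make a transcript and more transcript per cell cannot be told apart. Control 2 and mutant 2 were female by Xist, at 523 and 568 TPM against at most 0.75 TPM in the other 4. The sex of the embryo and the number 2 cannot be told apart for this X-linked gene.

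Decorin, the nearest relative of biglycan and a binder of collagen and TGF-beta (chromosome 10, 97479609 to 97518143, +), showed no such shift. Dcn was at 7.41, 17.0 and 10.1 TPM in controls 1, 2 and 3 against 6.89, 16.8 and 10.6 TPM in the mutants 1, 2 and 3. The mutant level was 0.93, 0.991 and 1.05 times the control level of the same number, so the spread lay between numbers rather than between genotypes. The log2 difference of -0.01 ± 0.39 (SE) leaves room for a change of either sign. With the replicate number as a block, which assumes that the numbers pair samples, its SE was 0.17.

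Taking decorin as the reference within each library removes the scale of the library. The ratio of Bgn to Dcn was 1.13, 1.65 and 1.66 in controls 1, 2 and 3 against 5.42, 5.44 and 4.12 in the mutants 1, 2 and 3. The mean ratio was 1.48 ± 0.30 in controls and 4.996 ± 0.76 in mutants (SD, n = 3), 3.38 times higher, with a gap between the groups wider than the range within either. A ratio shows that these genes differed unequally and not which of them moved. With other genes as the reference the groups overlapped. The ratio of Bgn to Lum was 2.02 to 2.49 in controls and 1.82 to 5.96 in mutants. To the matrix genes Col1a1 and Pcolce it was 1.63 to 1.90 and 1.02 to 1.63 in controls, against 1.79 to 4.14 and 0.598 to 2.69 in mutants.

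**Figure D2:**
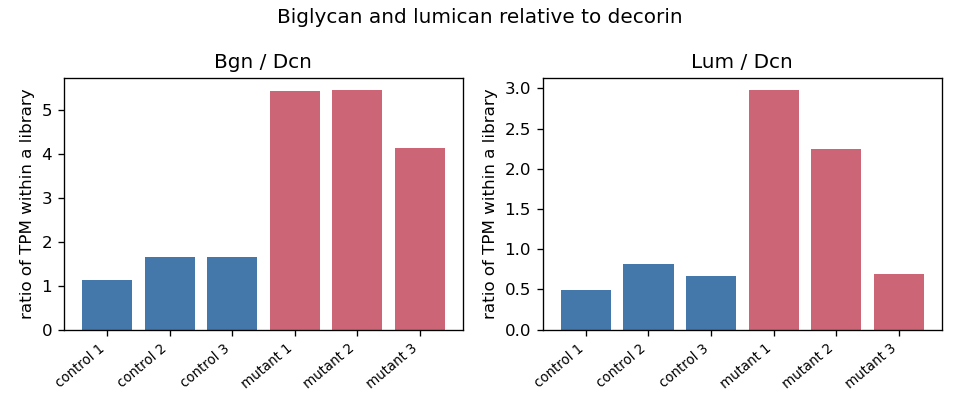
Ratio of the TPM of Bgn (left) and of Lum (right) to that of Dcn within each library (vertical axes from 0), 1 bar per control (blue) or mutant (red) library. Bgn / Dcn is at most 1.66 in controls and at least 4.12 in mutants, while Lum / Dcn in mutant 3, at 0.692, lies within the control range of 0.499 to 0.817.

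Lumican, a class II SLRP best known from the cornea, lies beside decorin on chromosome 10 (97565128 to 97572703, +). Lum stood at 3.70, 13.9 and 6.70 TPM in controls 1, 2 and 3 against 20.5, 37.8 and 7.35 TPM in the mutants 1, 2 and 3. Mutants 1 and 2 exceeded every control, but mutant 3 was within the control range and only 1.10 times above control 3. The means of 8.10 ± 5.24 and 21.9 ± 15.3 TPM (SD, n = 3) therefore overlap, with a log2 difference of 1.23 ± 0.61 (SE). The size of this difference depended on single libraries, at 1.83 without mutant 3 and 0.72 without mutant 2.

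Osteomodulin, a keratan sulfate SLRP of mineralizing bone, is the only other expressed member. Omd was at 5.24, 2.62 and 7.90 TPM in controls 1, 2 and 3 against 4.42, 5.04 and 2.20 TPM in the mutants 1, 2 and 3. The groups overlapped and the direction varied with the number, being higher in the mutant for number 2 and lower for numbers 1 and 3 (log2 difference -0.31 ± 0.41, SE). Over the 6 libraries the Pearson correlation of log2 levels was 0.87 for Bgn with Lum, 0.55 for Bgn with Dcn and 0.51 for Dcn with Lum, whereas Omd gave -0.34, -0.29 and -0.08 with Bgn, Dcn and Lum. These are descriptions over libraries that share genotype and stage.

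The other 6 members averaged below 1 TPM over the 6 libraries. The class II gene Fmod, whose product fibromodulin shapes tendon fibrils, was at 0.21, 0.32 and 0.46 TPM in controls 1, 2 and 3 against 0.43, 1.96 and 0.27 TPM in the mutants 1, 2 and 3, with mutant 2 apart from the rest. Ogn, which encodes mimecan, was at 0.24, 0.58 and 2.22 TPM in the controls against 0.04, 0.27 and 1.00 TPM in the mutants 1, 2 and 3. Each mutant was below the control of its number, but the groups overlapped. Aspn, which encodes the cartilage protein asporin, was at 0.43, 0.67 and 2.31 TPM in the controls against 0.10, 1.54 and 0.62 TPM in the mutants 1, 2 and 3. Prelp, whose product anchors basement membrane to collagen, ranged from 0.16 to 0.57 TPM in controls and from 0.11 to 0.67 TPM in mutants. The groups of both genes overlapped. The growth plate gene Epyc was at 0.52, 0.43 and 0.09 TPM in controls 1, 2 and 3, at 0.07 TPM in mutant 1 and listed at 0 in mutants 2 and 3. Epyc was thus the only member besides Bgn, on which the family was chosen, whose groups did not overlap. Among all genes tested, which leave out Epyc, the groups of 8.36% did not overlap. Epyc lay at levels where depth is unknown. It shares 1041 of its exonic bases with Gm10754 on the opposite strand, which these libraries do not tell apart. The corneal gene Kera was above 0 only in control 2 (0.05 TPM) and mutant 2 (0.21 TPM).

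The members lie in 3 clusters and a single gene, and the clusters did not share a level. On chromosome 10, Dcn and Lum were expressed while Kera (97606879 to 97613692) and Epyc (97644068 to 97682454) in the same row averaged below 1 TPM. On chromosome 13, Aspn (49544443 to 49567565), Omd (49582462 to 49592822) and Ogn (49608046 to 49624501), together with the related Ecm2, all lie inside the span of Cenpp, a centromere gene on the opposite strand. Omd alone of the members there passed 1 TPM on average over all libraries. Their exons share at most 7 bases with exons of Cenpp, those being in Aspn. Aspn, Ogn and Ecm2 had their highest control level in control 3 (2.31, 2.22 and 3.35 TPM), as did Omd. The mutants did not repeat this. Aspn, Ecm2 and Omd were highest in mutant 2 (1.54, 1.62 and 5.04 TPM) and Ogn in mutant 3 (1.00 TPM). On chromosome 1, Fmod (134037254 to 134048277) and Prelp (133910304 to 133921414) were both low.

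The RefSeq promoter table (GRCm38.p6, the same assembly as mm10) held 7 of the remaining 9 members as well as Bgn. The 250 bases before the start are shown for the expressed members it held, Bgn (chrX:73483351-73483600, +) and Omd (chr13:49582212-49582461, +), because their base composition differs, with capitals at matches to the motifs searched:
Bgn: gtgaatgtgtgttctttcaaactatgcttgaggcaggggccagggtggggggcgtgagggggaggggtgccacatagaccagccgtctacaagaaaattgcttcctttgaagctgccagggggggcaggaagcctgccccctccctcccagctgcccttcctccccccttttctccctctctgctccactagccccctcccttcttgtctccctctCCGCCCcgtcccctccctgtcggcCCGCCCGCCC
Omd: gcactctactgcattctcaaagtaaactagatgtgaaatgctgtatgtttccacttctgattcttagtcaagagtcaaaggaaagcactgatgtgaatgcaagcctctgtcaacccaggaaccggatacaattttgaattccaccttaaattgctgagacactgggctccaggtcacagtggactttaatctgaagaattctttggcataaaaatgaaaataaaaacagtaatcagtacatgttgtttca
The searched motifs were the GLI consensus GACCACCCA, the GC box GGGCGG, the TATA box TATAAA and the E box CACGTG, on both strands. Bgn held 3 GC box matches, all read on the opposite strand as CCGCCC and the last pair overlapping, and a GC content of 64.4%, higher than in 81.6% of 32851 promoters. Omd held no match and a GC content of 38.4%, and only 9.05% of promoters were lower. A GC box was found in 32.7% of promoters, a TATA box in 12.4%, an E box in 6.02% and the GLI consensus in 0.225%. The exact GLI consensus was in none of the promoters of the 8 members looked up, which says only that these letters are not in this window. Ogn and Aspn each had 2 TATA box matches, which overlap each other in Ogn.

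Bgn and Dcn were next compared by stage, a contrast that the choice of members did not use. The 4 libraries from embryos of 21 to 24 somites were set against the 2 of 19 somites with the genotype in the fit. Both 19-somite libraries carry the number 1, so stage and that number cannot be told apart. The oldest embryo of each genotype was also the female numbered 2, so within the older libraries somite number cannot be told apart from sex or that number. A call took an adjusted p no higher than 0.1 and a log2 difference no smaller than 1 in size. Bgn rose with stage, by 1.01 ± 0.33 on the log2 scale (SE, limma adjusted p = 0.0788), and was the only called member, 1 of 4, beside 9.41% of all genes. Dcn was higher by 0.81 ± 0.27 (limma adjusted p = 0.0847), short of the fold limit, and Lum and Omd differed by 0.47 ± 0.63 and -0.22 ± 0.42 with adjusted p-values of 0.635 and 0.746. The Bgn call was lost without control 2 (difference 0.82, adjusted p = 0.129) and without mutant 2 (0.82, adjusted p = 0.162). It was also lost without control 1 (0.75, adjusted p = 0.501) and without mutant 1 (1.27, adjusted p = 0.331), each of which leaves 1 library of 19 somites that is assumed to vary like the others. Without mutant 3, limma called Bgn and Lum (adjusted p = 0.0271 and 0.0752).

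With the somite number as a slope, a fit chosen after the values were seen, Bgn rose by 0.34 ± 0.07 log2 units per somite (SE, limma adjusted p = 0.041) and Dcn by 0.26 ± 0.06 (limma adjusted p = 0.0592). These were 2 of 4 members at an adjusted p of at most 0.1, with no fold limit, beside 11.8% of all genes. Within each genotype both genes followed the order of the somites, Dcn at 7.41, 10.1 and 17.0 TPM at 19, 21 and 24 somites in controls and at 6.89, 10.6 and 16.8 TPM at 19, 21 and 22 somites in mutants. Lum kept this order in controls but not in mutants, where 21 somites had the lowest level. Both slopes missed the limit without control 1, mutant 1 or mutant 2, with an adjusted p from 0.138 to 0.371, while their size stayed between 0.29 and 0.35 for Bgn and between 0.23 and 0.31 for Dcn.

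**Figure D3:**
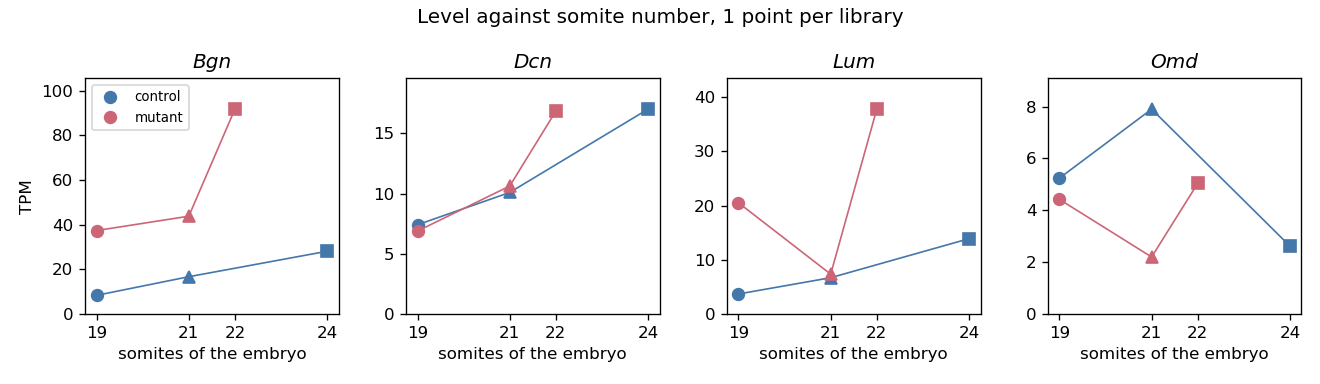
TPM of the 4 expressed members (vertical axes from 0) against the somite number of the embryo, 1 point per library, with lines joining libraries of 1 genotype and shapes for the replicate number as in the plot of all members. The control and mutant lines of Dcn run together from about 7 to 17 TPM, whereas the mutant line of Bgn lies above its control line at 19 and at 21 somites.

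The genes closest to Bgn in pattern were named by the Pearson correlation of log2(TPM + 1) over the 6 libraries. The first 5 were Sh3kbp1, an endocytic adaptor (r = 0.999), Tns1, the focal adhesion protein tensin (0.998), Nid2, the basement membrane protein nidogen 2 (0.995), Adam19, a membrane protease (0.993), and Itpripl2 (0.988). Tns1 stood at 3.37, 9.44 and 6.59 TPM in controls 1, 2 and 3 against 11.8, 25.3 and 12.7 TPM in the mutants 1, 2 and 3. Nid2 stood at 12.5, 26.3 and 21.2 TPM in the controls against 34.4, 60.4 and 34.5 TPM in the mutants. Like Bgn, both had every mutant above every control and their highest library at number 2. Both were picked for their likeness to Bgn in these libraries, so this follows from the choice. With only 6 libraries, such values describe these samples alone.

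Of 8 further genes of the family, Tsku and Ecm2 averaged over 1 TPM and were tested. Tsku, a secreted regulator of Wnt and BMP signals, was at 5.33 ± 1.57 TPM in the controls and 8.73 ± 3.60 TPM in the mutants (SD, n = 3), and Ecm2 at 1.81 ± 1.34 and 1.24 ± 0.52 TPM. The groups of both overlapped. The opticin gene Optc reached 1.71 TPM in control 1 and at most 0.25 TPM elsewhere, and Chad, Chadl, Nyx, Podn and Podnl1 did not exceed 0.51 TPM in any library.

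The genes that build, cleave and bind SLRPs were then compared between genotypes. Together with the 8 further SLRPs they numbered 101 in the table, of which 80 were tested. By the same limits limma called 0 of the 80, beside 0.0411% of all genes tested, and 0 with the replicate number as a block, beside 0.205%, while 10 of the 80 had an unadjusted p under 0.05 (12.5%, beside 4.09% of all genes), 9 higher and 1 lower in mutants. Over all genes the same limit took 449 higher and 148 lower. The groups did not overlap for 15 of the 80 (18.8%, beside 8.36%), 14 higher and 1 lower, and the median log2 difference was 0.19 beside 0.115 for all genes. The lists were chosen with earlier results of these data known, so these shares are a description and support nothing. The values of single genes given next all missed the limit for a call.

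Of the enzymes that make the sugar chains, all 11 linker genes, 13 of 15 chondroitin and dermatan sulfate genes and 6 of 9 keratan sulfate genes averaged at least 1 TPM and were tested. Ugdh, which makes the glucuronic acid donor, was at 23.4 ± 4.3 TPM in the controls and 27.1 ± 5.4 TPM in the mutants, and the sulfate donor synthase Papss1 at 14.8 ± 1.1 and 20.1 ± 1.7 TPM (SD, n = 3). B4galt7, which adds the first galactose of the linker, was at 1.90 ± 0.75 and 4.66 ± 1.67 TPM, a log2 difference of 0.96 ± 0.33 (SE, limma adjusted p = 0.999). The linker genes had a median log2 difference of 0.20 and a range from -0.27 to 0.96. Of the chondroitin and dermatan sulfate genes 13 were tested (median 0.10, from -0.60 to 0.44), led by the chain polymerase Chsy1 (71.1 ± 19.5 and 75.7 ± 17.9 TPM) and the dermatan sulfotransferase Chst14 (12.5 ± 0.9 and 13.3 ± 1.2 TPM). The 6 tested keratan sulfate genes had log2 differences from 0.09 to 0.65 with a median of 0.22, among them the sulfotransferase Chst2 (29.9 ± 5.9 and 35.3 ± 9.8 TPM) and the galactosyltransferase B4galt1 (22.3 ± 3.5 and 25.4 ± 1.9 TPM).

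Bmp1, the protease that removes the propeptide of biglycan and the C-terminal propeptide of procollagen, was at 7.49 ± 1.07 TPM in the controls and 7.56 ± 1.09 TPM in the mutants (SD, n = 3). Pcolce, the enhancer of that protease on procollagen, was at 8.22, 17.3 and 14.7 TPM in controls 1, 2 and 3 against 62.5, 34.0 and 25.5 TPM in the mutants 1, 2 and 3. All mutants were higher, but in contrast to Bgn mutant 1 was the highest (log2 difference 1.49 ± 0.39, SE, limma adjusted p = 0.706). Col1a1 stood at 9.76 ± 4.85 and 21.1 ± 4.0 TPM (limma adjusted p = 0.953) and Col1a2 at 23.7 ± 7.0 and 40.8 ± 6.7 TPM (limma adjusted p = 0.976), again with no overlap between the groups. The other abundant fibrillar collagens, Col3a1 (64.4 ± 13.5 and 80.5 ± 19.0 TPM) and Col2a1 (53.2 ± 16.02 and 69.5 ± 23.3 TPM), overlapped. The log2 differences of the 7 collagens ran from 0.07 to 1.13, with a median of 0.37.

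Growth factors that SLRPs bind were led by Igf2 (1664 ± 307 TPM in the controls and 1616 ± 37 TPM in the mutants, SD, n = 3). Igf1 was at 6.30 ± 0.35 and 14.9 ± 4.4 TPM (log2 difference 1.09 ± 0.26, SE, limma adjusted p = 0.601). Ctgf, the matricellular protein now named Ccn2, was at 5.33, 6.51 and 5.99 TPM in controls 1, 2 and 3 against 10.7, 10.8 and 10.5 TPM in the mutants 1, 2 and 3. Its groups were tight and apart, yet it did not pass over all genes (limma adjusted p = 0.846). By log2 difference 7 of the 11 genes were higher and 4 lower in mutants. Bmp4 fell furthest, at 146 ± 33 and 73.8 ± 24.7 TPM (limma adjusted p = 0.863). The 11 growth factor genes had a median log2 difference of 0.28, with a highest value of 1.09.

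Receptors reported to bind SLRPs were led by Itgb1 (109 ± 27 and 120 ± 16 TPM) and Lrp6 (63.4 ± 12.6 and 59.1 ± 15.9 TPM, SD, n = 3), and the 8 tested had a median log2 difference of 0.09. Kdr, a vascular receptor that decorin can bind, was at 12.6 ± 1.9 and 23.2 ± 4.6 TPM (limma adjusted p = 0.846). The toll-like receptors that detect soluble biglycan, Tlr2 and Tlr4, were below 1 TPM in all libraries, with Tlr4 at 0.40 to 0.49 TPM in controls and 0.57 to 0.96 TPM in mutants. Among the other proteoglycans, the glypican Gpc3 (287 ± 39 and 301 ± 40 TPM) and versican, Vcan (231 ± 94 and 226 ± 103 TPM), were far more abundant than any SLRP and had close means. Gpc4 (3.41 ± 0.90 and 9.08 ± 2.73 TPM, limma adjusted p = 0.691) and the syndecan Sdc3 (11.1 ± 0.9 and 19.3 ± 5.0 TPM, limma adjusted p = 0.999) had higher, separate groups. The median of the 18 tested core proteins was 0.06.

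**Figure D4:**
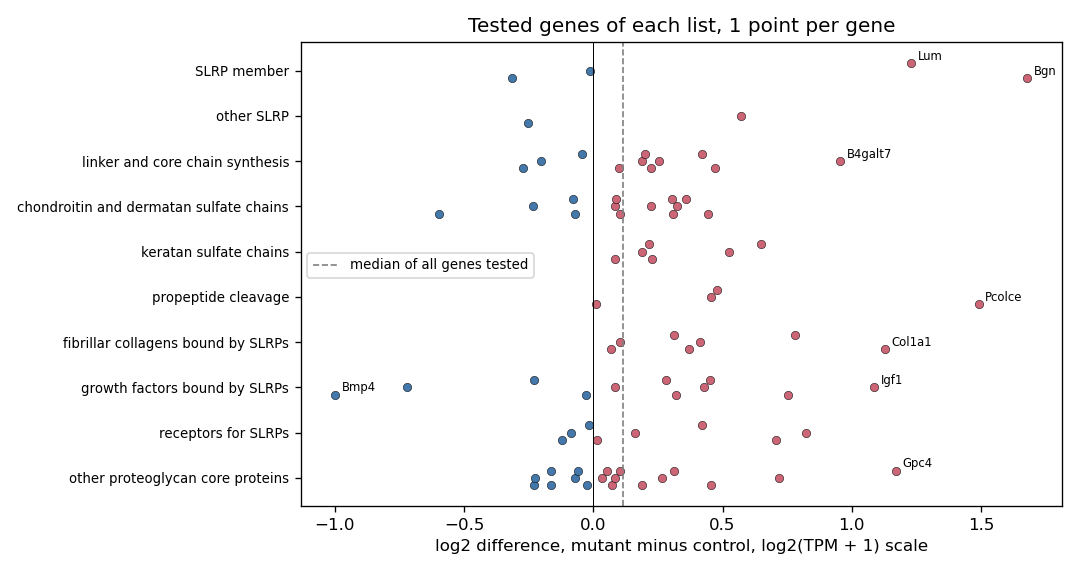
Log2 difference, mutant minus control, on the log2(TPM + 1) scale for the tested genes of each list, 1 point per gene, red above 0 and blue below, with a dashed line at 0.115, the median of all 14606 genes tested. Bgn (1.68) and Lum (1.23) stand to the right of the other family genes, and Pcolce, Gpc4, Col1a1 and Igf1 are the partner genes above 1.

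The libraries were checked against the labels and against markers of cell types. Gli1, the standard read-out of the pathway, was at 37.8, 21.6 and 28.6 TPM in controls 1, 2 and 3 against 4.49, 2.30 and 1.44 TPM in the mutants, which is the direction of the labels. The transcripts of the mutated genes do not check the genotype by themselves. Gli2 was at 16.85, 20.95 and 25.61 TPM in controls 1, 2 and 3 and so below the mutant of its number each time (18, 36.96 and 27.52 TPM), whereas Gli3 was above it each time (79.2, 129 and 109 TPM against 53.7, 97.35 and 73.8 TPM). The foregut endoderm marker Epcam and the mesoderm marker Vim, the most abundant of their lists, were present throughout. Features named by an accession took 23.5% to 43.9% of the TPM of a library.

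The summed markers of several cell types, like Bgn, were higher in every mutant than in every control. The sum of 7 endothelial markers, led by Cdh5, was 96.5 to 156 TPM in controls and 172 to 265 TPM in mutants, and all 7 were higher on average. Those of 6 pharyngeal mesoderm markers led by Isl1 (65.4 to 89.8 and 109 to 125 TPM, 4 of 6 higher), 6 somite and sclerotome markers led by Meox1 (13.8 to 41.4 and 59.1 to 106 TPM, 5 of 6 higher) and 7 mesothelial and septum transversum markers led by Krt19 (26.5 to 38.1 and 99.4 to 121 TPM, all 6 tested higher) were apart between genotypes, too. Not every marker went with its sum. Isl1 ranged from 27.1 to 37.7 TPM in controls and from 18.2 to 28.7 TPM in mutants. The muscle precursor gene Msc ranged from 2.92 to 6.67 TPM and from 0 to 1.00 TPM. In its human cultures the study used MSC for esophageal and gastric mesenchyme and LHX2 for liver mesenchyme. Msc and Lhx2, both on the pharyngeal list, thus do not mark pharyngeal mesoderm alone. No marker of these 4 lists was at 0 in every library. Splanchnic mesoderm markers summed to 508 to 692 TPM in controls and 472 to 480 TPM in mutants, every mutant below every control. Of these 6 markers only Vim was higher in mutants (202 ± 34 and 309 ± 47 TPM, SD, n = 3), and the other 5 were lower on average. Cardiomyocyte (105 to 441 and 127 to 944 TPM) and red cell markers (3257 to 27060 and 7089 to 31250 TPM) overlapped. The 5 measured cartilage markers overlapped (78.6 to 96.3 and 70.0 to 130 TPM), with Acan at no more than 0.12 TPM and Comp listed at 0 in all but mutant 1. Neural tube markers stood out in mutant 2 alone (46.6 TPM against at most 5.91 TPM elsewhere), the library with the highest Bgn and Lum. Without it the log2 difference of Bgn was 1.29 ± 0.46 (SE). Within a library the ratio of Bgn to the endothelial gene Cdh5 was 0.296, 0.490 and 0.478 in controls 1, 2 and 3 against 0.712, 1.06 and 0.755 in the mutants 1, 2 and 3. Its ratio to the pharyngeal gene Prrx1 overlapped between the groups (0.876 to 2.24 and 1.07 to 1.92). The part of these cell types in the level of Bgn was not tested.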

How the data were processed

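RNA of 6 single-embryo foreguts was amplified with SMART-Seq v4 and made into Nextera XT libraries per the labels, which select polyadenylated RNA and do not mark strand. The authors aligned reads to mm10 within CSBB v3.0 and deposited 1 table of TPM values for 22564 features. The aligner, quantifier and annotation inside that pipeline were not given in the sources used here. Each column summed to 1000000 TPM up to rounding, so depth is unknown, counting error could not be stated, and the 3 embryos of each group set the precision.

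Columns were matched to samples by genotype and number. Log2(TPM + 1) of the 14606 genes averaging 1 TPM or more was fitted with limma 3.58.1 in R 4.3.3 (mean-variance trend, two-sided, Benjamini-Hochberg over all genes). The study's methods name a count model, which needs counts, so limma was used instead. Calls took an adjusted p no higher than 0.1 and a log2 change no smaller than 1 in size. The smallest two-sided exact permutation p for 3 against 3 is 0.1. The fit was tested on simulated data. Members and lists were chosen with earlier results of these data known. Genes named were all SLRPs, the 2 most abundant and up to 3 genes by p, under 0.05 unadjusted, of each partner list, Gli1, Gli2, Gli3, the 5 genes most like Bgn and the most abundant marker of cell type lists, and further genes (Xist, Cenpp, Gm10754, toll-like receptors, Prrx1, Msc, Acan and Comp) were added after their values were seen. Gene positions and coding sequences came from GENCODE M21 and promoters from RefSeq.

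Labels number both groups 1, 2 and 3. The correlation of group-centred values between libraries of equal number was 0.668, 0.370 and 0.148. All were over 0.1, and on that limit the numbers were used as a block. Control 3, however, correlated more with mutant 2 (0.24) than with mutant 3, and mutant 3 more with control 2 (0.24) than with control 3. Both libraries numbered 1, and no others, were of 19 somites. The meaning of the numbers is not labelled, and with 3 libraries per group these correlations cannot tell pairing from stage. Pairing was thus assumed in the block fits and in the comparisons within a number. Alternatives were other pseudocounts, filters and scalings, the replicate block, the somite number, and leaving out libraries.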

Additional observations from a re-analysis of the deposited data

How the results depend on the processing

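The log2 difference of Bgn stayed between 1.26 and 2.07 under 16 alternatives, which are also its lowest and highest values with 1 library left out. Lum stayed between 0.72 and 1.83 and Omd between -0.66 and -0.01, while Dcn ranged from -0.31 to 0.29 and was below 0 in 12 of 16. Members called between genotypes were 0 in the main fit, 1 with the replicate block and 1 with the somite number as a covariate. The number was 0 in the other 15 alternatives, leaving out 1 library included (limma, with 1 or 2 at an unadjusted p under 0.05). The called member was Bgn, which was chosen on this contrast, so these counts support nothing. Partner genes called were 0 under all 17 alternatives, with 8 to 17 at an unadjusted p under 0.05. Members called by stage, 1 as reported, were 0 with a pseudocount of 5, with no filter and with the adjusted p limit at 0.05 (2 at an unadjusted p under 0.05 in each), 2 when rescaled without accession-named features, 2 with the somite slope, and 0 to 2 with 1 library left out (0 to 3 at an unadjusted p under 0.05). All genes called between genotypes, 6 as reported, were 3 with no filter, 1 among genes averaging 5 TPM or more, 11 with quantile normalization, 16 when rescaled without accession-named features, 30 with the replicate block, 27 with the somite covariate, 3 with the adjusted p limit at 0.05, 0 without both libraries numbered 1 (626 at an unadjusted p under 0.05) and 0 to 7 with 1 library left out, the 0 being without control 2 or control 3 (445 and 561 at an unadjusted p under 0.05). The stage comparison could not be run with the replicate block, the somite covariate or without both libraries numbered 1. The causes were not tested. What depth limits cannot be given from TPM.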
